A study of Arabidopsis thaliana with 6 samples.

Results

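The genes described here encode the chloroplast protein import machinery: 10 loci named for the translocons at the outer (TOC) and inner (TIC) chloroplast envelope. They were listed by their place in the import pathway, by a rule that uses no measured value but was written with earlier results of these data known, and are TOC33, TOC34, TOC159, TOC132, TOC120, TOC75, TIC110, TIC40, TIC20-I and TIC56. Of these 10 loci, 9 had counts and all 9 passed the filter on low counts, among 14762 genes tested and 21671 transcripts with reads in any library. The 35S:GmWRI1 group consisted of Arabidopsis thaliana Col-0 leaf mesophyll protoplasts, leaf cells stripped of their walls, that received the soybean transcription factor gene GmWRI1-A behind the cauliflower mosaic virus 35S promoter. The 35S:mCHERRY group consisted of the same kind of cells, which received the same promoter driving a red fluorescent protein as negative control. Both groups were incubated for 16 h and each had 3 biological replicates. The plasmids acted only transiently, the promoter is active in most plant cells, and the endogenous WRI1 gene was intact in both groups, so the comparison is of added GmWRI1 in wild-type leaf cells. The comparison asks which import genes differed in mRNA level when GmWRI1, a WRINKLED1-type factor that promotes fatty acid and oil synthesis in seeds, was supplied to leaf cells, and whether receptors of the photosynthetic and housekeeping classes differed.

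Most chloroplast proteins are made in the cytosol as precursors with a transit peptide. GTPase receptors of the TOC complex recognise the transit peptide, TOC75 forms the channel across the outer envelope, and the TIC complex with stromal chaperones completes the passage. In Arabidopsis, TOC33 and TOC159 are the main receptors of green tissue and favour photosynthetic precursors, and loss of either gives pale or albino plants. TOC34, TOC132 and TOC120 are known to serve the housekeeping precursors that all plastids need, although the division is a preference and not absolute.

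The libraries held 4950522 to 11748328 gene counts in GmWRI1 cells and 4155836 to 8227115 in mCHERRY cells. Levels are library-scaled counts (CPM, a share of the library total on a common scale) adjusted by the trimmed mean of M values (TMM), and a count of 3, the most that an observed 0 allows, corresponded to 0.256 to 0.742 CPM per library, for counting error only. Of 5 mesophyll markers, RBCS1A, RCA and LHCB1.2 rose, CA1 did not pass the test (log2 fold change -0.15), and LHCB2.3 was below the filter. Their summed level was 542 to 623 CPM in GmWRI1 libraries and 186 to 198 CPM in mCHERRY libraries. The 8 markers of epidermal, guard, trichome and vascular cells summed to 0.404 to 1.38 CPM in GmWRI1 libraries and 0.487 to 1.73 CPM in mCHERRY libraries, none passed the filter, and no library held more than 4 counts of any of them. Most of the difference in the summed mesophyll markers was in RBCS1A, which averaged 331 CPM in GmWRI1 cells and 43.4 CPM in mCHERRY cells. Reads that matched RBCS1A and a near-identical gene equally well were discarded. The part of the 3 markers that rose in the results below was not tested. In RNA from whole populations of cells, fewer cells with a transcript and less transcript per cell cannot be told apart.

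The AW Box, spelled CNTNG, then any 7 bases, then CG, is a DNA element that WRI1 proteins are known to bind, and it was searched on both strands within 500 bp on either side of the transcription start of each locus. The matches of TOC159, TIC110 and TOC34 are shown because TOC159 and TIC110 rose and TOC34 did not pass the test, and that of TIC56 because it lies inside the coding sequence. Each is written 5′ to 3′ along the strand that carries the motif, with the fixed letters of the motif in capitals, in the RefSeq TAIR10.1 assembly.

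TOC159, upstream of the start (chr4:1103949-1103962, minus strand): CtTgGccacaaaCG
TIC110, 5′ UTR (chr1:2135614-2135627, plus strand): CgTaGggtttaaCG
TIC110, upstream of the start (chr1:2135899-2135912, plus strand): CaTcGtcgtcttCG
TOC34, 5′ UTR (chr5:1476311-1476324, plus strand): CgTcGccggattCG
TOC34, upstream of the start (chr5:1476665-1476678, minus strand): CtTgGgagtgatCG
TIC56, coding exon (chr5:224320-224333, plus strand): CtTcGtctcgctCG

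TOC33 and TOC75, which also rose, and TOC120 held no such letters in this window. Not shown are 2 upstream matches each of TOC132 and TIC40, which did not pass the test, and 1 of TIC20-I, which was not analysed. Downstream of the start, 3 of the 9 tested members held a match (33.3%), against 42.8% of 14616 tested nuclear genes with a gene model. Upstream of the start, 5 of 9 did (55.6%), against 19.5% of the same genes. Among the 4 members that rose, 1 had a downstream and 2 had an upstream match, and among the 5 that did not pass the test, 2 had a downstream and 3 had an upstream match. These matches are descriptions of letters and not of binding.

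GmWRI1 cells held more mRNA of both photosynthetic receptors, of the outer envelope channel TOC75 and of the inner envelope protein TIC110 than mCHERRY cells. TOC33 differed most, 2.34-fold, followed by TOC75 at 1.95-fold, TOC159 at 1.73-fold and TIC110 at 1.65-fold. None of the 3 housekeeping receptors passed the test, nor did TIC40 or TIC56. At an adjusted p under 0.05 (edgeR quasi-likelihood test, Benjamini-Hochberg over all tested genes), 4 of 9 members were higher and 0 were lower, whereas 20.4% of all tested genes were higher and 14.6% were lower. With a log2 fold change over 1 required as well, only TOC33 was called up-regulated, 1 of 9, against 9.44% of all tested genes called up and 1.45% called down. The GmWRI1 libraries lay entirely above the mCHERRY libraries for 4 of 9 members, against 24.9% of all tested genes, and entirely below them for 0 of 9, against 21.1%. The median log2 fold change was 0.13 over the 9 members and -0.01 over all tested genes, and the members ranged from -0.33 to 1.23.

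**Figure D1:**
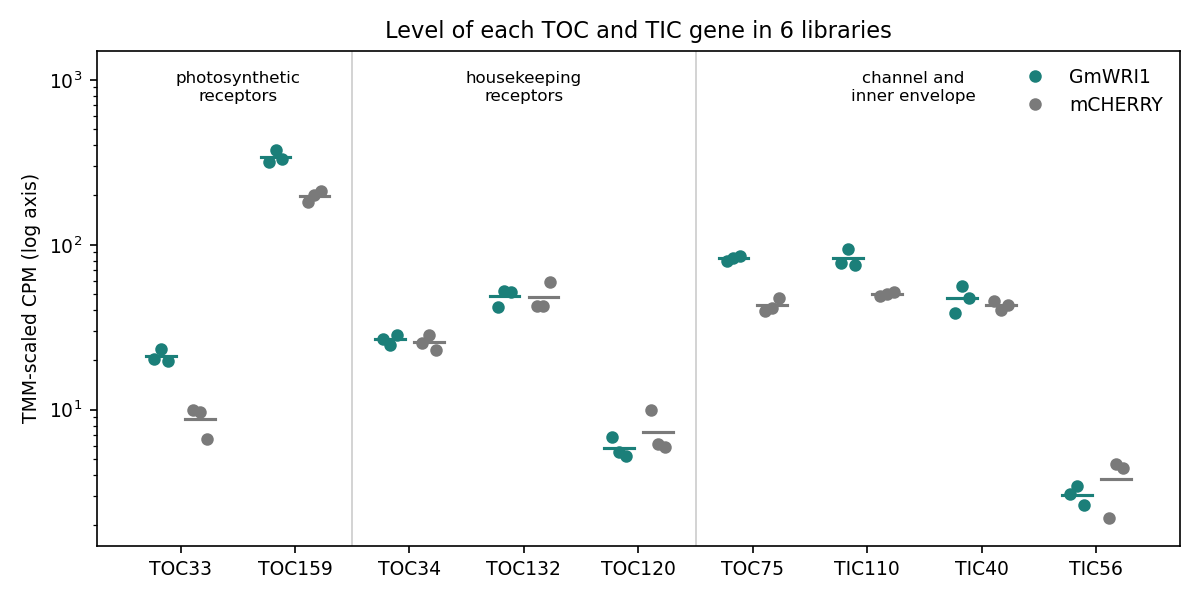
Level of each of the 9 TOC and TIC genes with counts, in TMM-scaled CPM on a log axis. Points are libraries, 3 of GmWRI1 (teal) to the left of 3 of mCHERRY (gray), and lines are group means. The groups are separate for TOC33, TOC159, TOC75 and TIC110 and overlap for the other 5 genes.

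TOC33 (AT1G02280, chromosome 1, 448423 to 450426, minus strand) encodes the small receptor GTPase of the photosynthetic class. Its level was 20.3, 23.5 and 19.6 CPM in GmWRI1 libraries 1, 2 and 3, and 10.03, 9.74 and 6.68 CPM in mCHERRY libraries 1, 2 and 3. Every GmWRI1 library was above every mCHERRY library, and mCHERRY library 3, the shallowest, was the lowest of the 6. The log2 fold change was 1.23 (SE 0.18, 95% interval 0.86 to 1.59, adjusted p = 1.05e-05 by edgeR), and the fold of 2.34 had an interval of 1.81 to 3.01. It rested on 238, 170 and 97 counts in GmWRI1 libraries and 82, 60 and 27 counts in mCHERRY libraries.

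TOC34 (AT5G05000, chromosome 5, 1474027 to 1476434, minus strand) is the paralog of TOC33 and is assigned to the housekeeping class. GmWRI1 libraries gave 27.0, 24.7 and 28.5 CPM, and mCHERRY libraries gave 25.6, 28.2 and 23.0 CPM. The groups overlapped, and the log2 fold change of 0.05 (95% interval -0.22 to 0.33, adjusted p = 0.801 by edgeR) did not pass the test. The longest run of identical bases between the TOC33 and TOC34 transcripts was 18, and no window of 36 bases of either recurred exactly in another transcript; inexact matches were not searched.

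TOC159 (AT4G02510, chromosome 4, 1104429 to 1111784, plus strand) encodes the large receptor for photosynthetic precursors and was the most abundant member. It had 318, 375 and 330 CPM in GmWRI1 libraries, and 182, 199 and 213 CPM in mCHERRY libraries. The groups did not overlap, with means of 341 ± 29.8 CPM in GmWRI1 cells and 198 ± 15.5 CPM in mCHERRY cells (SD, n = 3 each). It rose by a log2 of 0.79 (SE 0.094, 95% interval 0.59 to 0.98, adjusted p = 8.58e-07 by edgeR), which is under the fold limit. At its exons it shares 46 bases with GSTF2 on the opposite strand, and use of strand in counting is not given in the sources used here.

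TOC132 (AT2G16640, chromosome 2, 7211059 to 7215617, minus strand) and TOC120 (AT3G16620, chromosome 3, 5658317 to 5662066, minus strand) encode the large receptors of the housekeeping class, which are known to overlap in function. TOC132 had 42.1, 52.8 and 52.0 CPM in GmWRI1 libraries and 42.3, 42.7 and 59.6 CPM in mCHERRY libraries. TOC120 had 6.83, 5.53 and 5.26 CPM in GmWRI1 libraries and 9.91, 6.17 and 5.94 CPM in mCHERRY libraries. Both genes overlapped between groups, mCHERRY library 3 being the highest for TOC132 and mCHERRY library 1 the highest for TOC120. The log2 fold changes were 0.03 for TOC132 (95% interval -0.25 to 0.31, adjusted p = 0.88) and -0.33 for TOC120 (95% interval -0.85 to 0.18, adjusted p = 0.316) by edgeR. TOC120 was counted on only 80, 40 and 26 reads in GmWRI1 libraries and 81, 38 and 24 reads in mCHERRY libraries, and its interval does not exclude a decrease as large as the increase of TOC159. The TOC132 and TOC120 transcripts share an identical run of 53 bases, and 2.34% of TOC132 windows and 1.52% of TOC120 windows of 36 bases recurred in another transcript, so reads from these stretches could not be placed on a single gene.

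**Figure D2:**
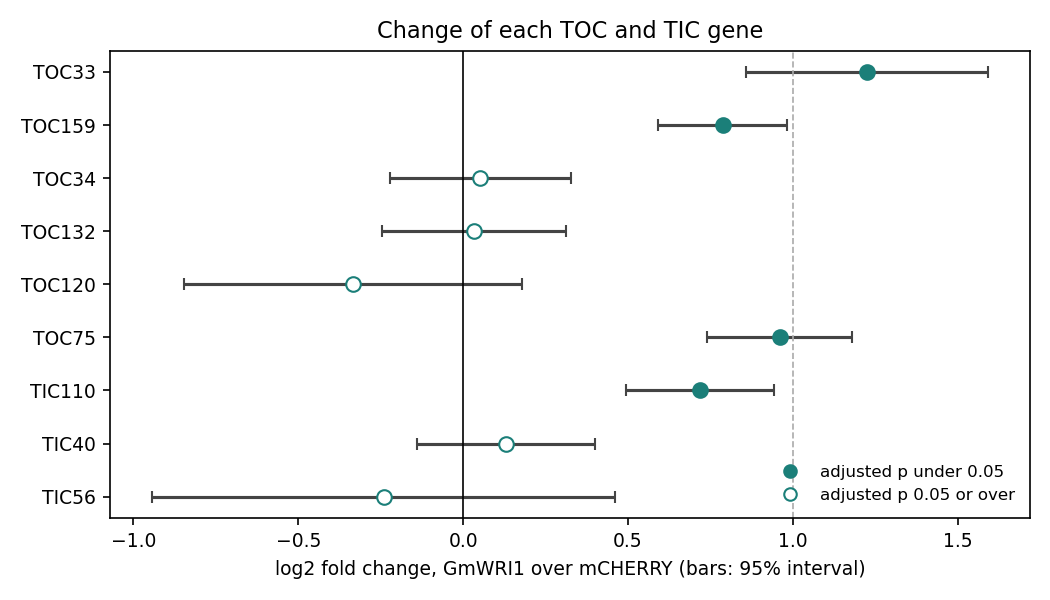
Log2 fold change of GmWRI1 over mCHERRY for each of 9 TOC and TIC genes, with 95% intervals from the edgeR quasi-likelihood fit. Filled points have an adjusted p under 0.05 and the dashed line marks the fold limit of 1. TOC33 alone has its estimate beyond the limit, at 1.23, and the intervals of TOC34, TOC132, TOC120, TIC40 and TIC56 include 0.

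Ratios of receptor counts within a library do not depend on scaling between libraries and compare the classes directly. TOC33 counts per TOC34 count were 0.753, 0.9497 and 0.688 in GmWRI1 libraries and 0.392, 0.345 and 0.290 in mCHERRY libraries. TOC159 counts per count of TOC132 plus TOC120 were 6.50, 6.42 and 5.77 in GmWRI1 libraries and 3.49, 4.07 and 3.25 in mCHERRY libraries. For both ratios every GmWRI1 library was above every mCHERRY library. On the log2 scale the TOC33 to TOC34 ratio averaged -0.34 ± 0.24 in GmWRI1 cells and -1.56 ± 0.22 in mCHERRY cells (SD, n = 3 each), a difference of 1.22, or 2.32-fold. The ratio of large receptors averaged 2.64 ± 0.094 in GmWRI1 cells and 1.84 ± 0.17 in mCHERRY cells (SD, n = 3 each), a difference of 0.80, or 1.74-fold. Each difference gave p = 0.1 in a two-sided exact permutation test, which is the smallest that 3 libraries against 3 allow. Neither ratio could therefore pass 0.05 by that test, even before any adjustment over the 3 measures computed.

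Receptor counts per kb are here the counts of TOC33, TOC34, TOC159, TOC132 and TOC120, each divided by transcript length. The photosynthetic receptors TOC33 and TOC159 made up 69.8%, 72.7% and 68.3% of them in GmWRI1 libraries, and 56.3%, 57.2% and 57.1% in mCHERRY libraries. This share was 13.4 percentage points higher in GmWRI1 cells, at 70.3% ± 2.23 against 56.8% ± 0.465 in mCHERRY cells (SD, n = 3 each; exact permutation p = 0.1, the smallest possible). TOC159 alone held 54.9% ± 1.53 of receptor counts per kb in GmWRI1 cells and 47.3% ± 2.48 in mCHERRY cells. TOC33 held 15.4% ± 0.835 in GmWRI1 cells and 9.57% ± 2.19 in mCHERRY cells. TOC34 held 17.7% ± 2.08 in GmWRI1 cells and 25.0% ± 2.65 in mCHERRY cells, although its own level did not pass the test. Shares sum to a fixed total, so a lower share of a housekeeping receptor is not a lower level. They leave out TOC90 and TOC64-III, receptors of the other import list, named here after their values were seen. TOC90 averaged 97.0 CPM in GmWRI1 cells and 93.4 CPM in mCHERRY cells (log2 fold change 0.06, adjusted p = 0.68 by edgeR). TOC64-III averaged 28.1 CPM in GmWRI1 cells and 24.9 CPM in mCHERRY cells. Counting both would lower the share of TOC33 and TOC159 in each group.

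**Figure D3:**
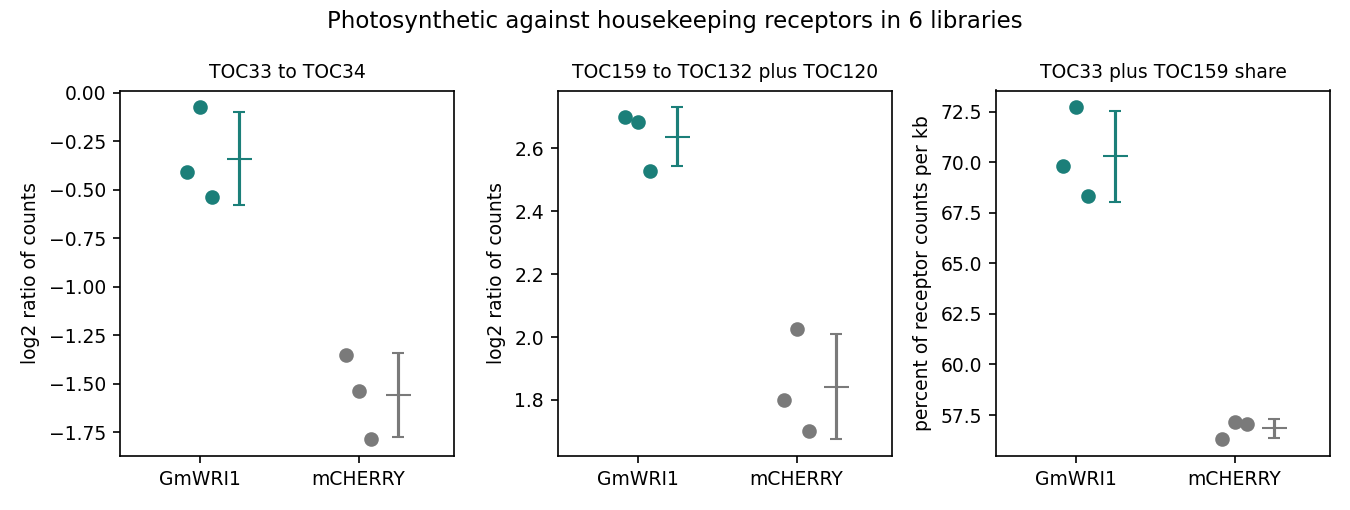
Receptor ratios within each library: log2 of TOC33 to TOC34 counts, log2 of TOC159 to TOC132 plus TOC120 counts, and the percent of receptor counts per kb held by TOC33 and TOC159. Receptors in the percent are TOC33, TOC34, TOC159, TOC132 and TOC120. Points are libraries, GmWRI1 left of mCHERRY, and bars are mean and SD (n = 3 each); the axes do not start at 0. In all 3 panels the GmWRI1 libraries lie above the mCHERRY libraries.

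TOC75 (AT3G46740, chromosome 3, 17215813 to 17219411, minus strand) encodes the beta-barrel channel that receptors of both classes use. It had 79.5, 83.6 and 85.5 CPM in GmWRI1 libraries and 39.5, 41.4 and 47.7 CPM in mCHERRY libraries. The groups were well separated, with 82.9 ± 3.08 CPM in GmWRI1 cells and 42.9 ± 4.32 CPM in mCHERRY cells (SD, n = 3 each). TOC75 rose by a log2 of 0.96 (SE 0.11, 95% interval 0.74 to 1.18, adjusted p = 2.59e-07 by edgeR), just under the fold limit. Without mCHERRY library 3 the change was 1.03 and TOC75 was called up-regulated beside TOC33.

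TIC110 (AT1G06950, chromosome 1, 2130053 to 2135703, minus strand) encodes an abundant inner envelope protein that gathers chaperones on the stromal side. It had 77.7, 94.7 and 75.4 CPM in GmWRI1 libraries and 49.0, 50.3 and 51.7 CPM in mCHERRY libraries. The groups did not overlap and GmWRI1 library 2 was the highest. TIC110 rose by a log2 of 0.72 (SE 0.11, 95% interval 0.49 to 0.94, adjusted p = 1.89e-05 by edgeR).

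TIC40 (AT5G16620, chromosome 5, 5450620 to 5454577, plus strand) encodes a co-chaperone that works with TIC110. It had 38.7, 56.1 and 47.3 CPM in GmWRI1 libraries and 45.7, 40.1 and 43.0 CPM in mCHERRY libraries, so that the GmWRI1 libraries held both the lowest and the highest of the 6 values. Its log2 fold change was 0.13 (95% interval -0.14 to 0.40, adjusted p = 0.475 by edgeR), and the upper bound lies below the estimate for TIC110. That difference between TIC40 and TIC110 was not tested.

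TIC56 (AT5G01590, chromosome 5, 224134 to 226926, plus strand) encodes a subunit of a large inner envelope complex that also contains TIC20, TIC100 and TIC214. It was the least abundant member, with 3.08, 3.46 and 2.63 CPM in GmWRI1 libraries and 2.20, 4.71 and 4.45 CPM in mCHERRY libraries. The groups overlapped, and with 13 to 36 counts in GmWRI1 libraries and 18 to 29 counts in mCHERRY libraries the interval was wide. The log2 fold change was -0.24 (95% interval -0.94 to 0.46, adjusted p = 0.622 by edgeR), so the interval admits a fall, though not a rise, of the size measured for TOC159.

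TIC20-I (AT1G04940, chromosome 1, 1399182 to 1400830, plus strand), which encodes a channel protein of the inner envelope, had no line in the count lists, where transcripts without a read are not written, and its level was not analysed here. In the RefSeq annotation its 1198 exonic bases all lie within AT1G04945 on the same strand, and 854 of its 1163 windows of 36 bases (73.4%) recur in that transcript. Reads with more than 1 equally good location were discarded by the alignment settings. AT1G04945 had 16.0, 17.4 and 15.6 CPM in GmWRI1 libraries and 19.7, 20.1 and 22.5 CPM in mCHERRY libraries (log2 fold change -0.34, adjusted p = 0.0811 by edgeR). Whether those counts include TIC20-I RNA, and the part of the overlap in the lack of a value, were not tested.

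Per kb of transcript, the level of TOC159 was the highest of the 9 members in both groups, at 62.1 ± 5.43 CPM per kb in GmWRI1 cells and 36.03 ± 2.83 CPM per kb in mCHERRY cells (SD, n = 3 each). TOC75 had the next highest mean in GmWRI1 cells at 29.0 ± 1.07 CPM per kb, within the spread of TIC40, which was above it in GmWRI1 library 2, whereas in mCHERRY cells it stood at 15.0 ± 1.51 CPM per kb, below TIC40 and TOC34. TIC40 had 25.6 ± 4.70 CPM per kb in GmWRI1 cells and 23.2 ± 1.53 CPM per kb in mCHERRY cells. TIC110 and TOC34 followed in GmWRI1 cells, and TIC110 was within the spread of TIC40 there and within the spread of TOC75 in mCHERRY cells. TOC33 had 17.4 ± 1.70 CPM per kb in GmWRI1 cells and 7.26 ± 1.53 CPM per kb in mCHERRY cells, and TOC34 had 19.9 ± 1.41 CPM per kb in GmWRI1 cells and 19.0 ± 1.94 CPM per kb in mCHERRY cells. The ranges of mean ± SD of the small receptors overlapped in GmWRI1 cells, and in mCHERRY cells TOC33 lay below TOC34 in every library. TOC33 also stood above TOC132 in GmWRI1 cells, where TOC132 had 11.97 ± 1.45 CPM per kb, and below it in mCHERRY cells, where TOC132 had 11.8 ± 2.42 CPM per kb. TOC120 and TIC56 were lowest in both groups, at 1.64 ± 0.235 and 1.52 ± 0.206 CPM per kb in GmWRI1 cells, and 2.05 ± 0.623 and 1.89 ± 0.688 CPM per kb in mCHERRY cells, and could not be ordered within their spread. Together the 9 members summed to 613 to 719 CPM in GmWRI1 libraries and 406 to 455 CPM in mCHERRY libraries.

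Beyond the members, 36 other genes of the chloroplast import pathway were listed, of which 35 had reads and 34 were tested. By edgeR, 7 of 34 were higher and 2 were lower at an adjusted p under 0.05, 25 did not pass (all tested genes: 20.4% higher, 14.6% lower), and 2 of 34 were also past the fold limit, both upward (all tested genes: 9.44% up, 1.45% down). Their median log2 fold change was 0.14, near the 0.13 of the members, and the range was -0.31 to 2.06. The largest change was in CPHSC70-2 (AT5G49910), a stromal HSP70 chaperone that helps pull precursors inward. It had 855, 960 and 799 CPM in GmWRI1 libraries and 194, 213 and 219 CPM in mCHERRY libraries, so that the groups were far apart. CPHSC70-2 rose by a log2 of 2.06 (SE 0.096, adjusted p = 2.13e-13). Its paralog CPHSC70-1 (AT4G24280) was at 0.23 (adjusted p = 0.0568), and CPHSC70-2 counts per CPHSC70-1 count were 5.80, 7.24 and 5.38 in GmWRI1 libraries and 1.64, 1.78 and 1.71 in mCHERRY libraries. This pair encodes the only HSP70 proteins of the Arabidopsis stroma, and the ratio did not overlap between groups. For the HSP93 pair of stromal motor proteins, HSP93-III counts per HSP93-V count were 0.1196, 0.125 and 0.116 in GmWRI1 libraries and 0.116, 0.132 and 0.126 in mCHERRY libraries, which overlapped. CPHSC70-1 and both ratios were chosen for display after their values were seen.

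TIC100 (AT5G22640), a partner of TIC56 in the same inner envelope complex, had 12.9, 22.1 and 15.4 CPM in GmWRI1 libraries and 4.28, 5.03 and 7.17 CPM in mCHERRY libraries. The groups did not overlap, and TIC100 rose by a log2 of 1.66 (SE 0.24, adjusted p = 1.14e-05 by edgeR). TIC214 (ATCG01130), the chloroplast-encoded subunit of that complex, was at -0.17 (adjusted p = 0.272 by edgeR). TIC56, TIC100 and TIC214 thus had changes of -0.24, 1.66 and -0.17, of which only that of TIC100 passed the test.

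The FTSHI proteins, inactive relatives of FtsH proteases, form an inner envelope complex proposed to pull precursors through. FTSHI2 (AT3G16290) rose by 0.67 (adjusted p = 0.000183), FTSHI5 (AT3G04340) by 0.73 (adjusted p = 0.000463) and FTSHI4 (AT5G64580) by 0.63 (adjusted p = 0.0129) on the log2 scale by edgeR. TIC55 (AT2G24820), an inner envelope Rieske protein, averaged 235.9 ± 17.9 CPM in GmWRI1 cells and 162.7 ± 6.52 CPM in mCHERRY cells (SD, n = 3 each), and rose by 0.54 (adjusted p = 6.65e-05). The 7th gene that rose was TIC21 (AT2G15290), an inner envelope permease, at 0.33 (adjusted p = 0.0363), named outside the rule to complete the count. FTSHI1 (AT4G23940) and FTSH12 (AT1G79560) of the same complex, also named after their values were seen, were at 0.10 and 0.13 and did not pass.

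The 2 genes that fell were HSP90C (AT2G04030), a stromal HSP90 chaperone, and PREP1 (AT3G19170), a protease that degrades cleaved transit peptides. HSP90C averaged 35.2 ± 2.31 CPM in GmWRI1 cells and 43.7 ± 2.87 CPM in mCHERRY cells (SD, n = 3 each), a log2 fold change of -0.31 (adjusted p = 0.0389 by edgeR). PREP1 averaged 295.6 ± 23.8 CPM in GmWRI1 cells and 349.0 ± 21.0 CPM in mCHERRY cells (SD, n = 3 each), a log2 fold change of -0.24 (adjusted p = 0.0428 by edgeR). Neither gene overlapped between groups, but the count of 2 was 0 when any single library other than GmWRI1 library 3 was left out. Next by adjusted p among genes with a negative change came CDC48A (AT3G09840), an ATPase of receptor turnover, at -0.13 (adjusted p = 0.269), and TIC214.

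**Figure D4:**
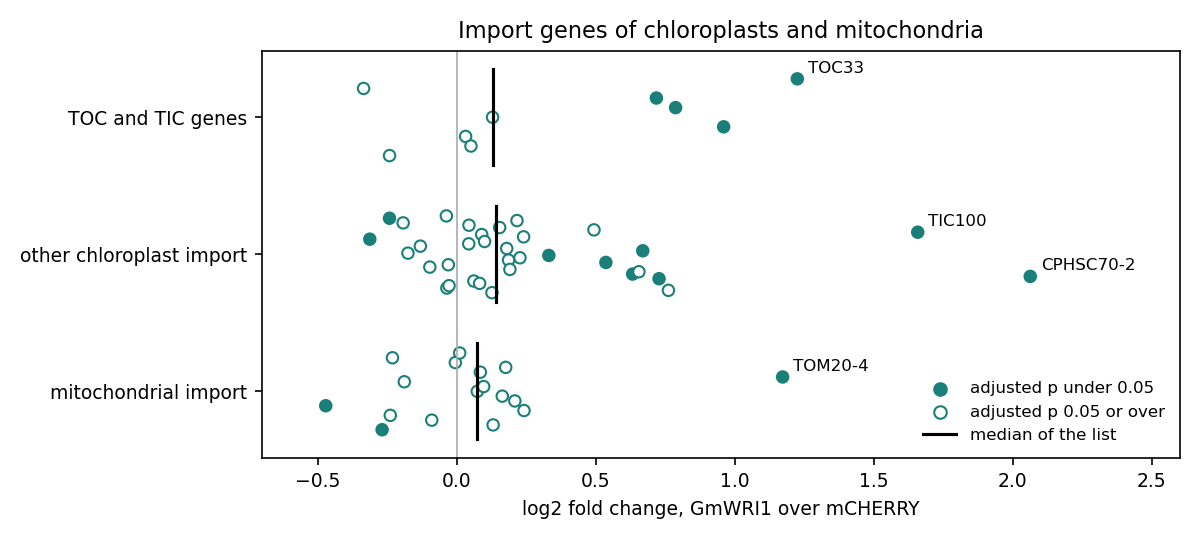
Log2 fold change of GmWRI1 over mCHERRY for 9 TOC and TIC genes, 34 other chloroplast import genes and 17 mitochondrial import genes, 1 point per gene, with filled points at an adjusted p under 0.05. Vertical bars are list medians of 0.13, 0.14 and 0.07, and the vertical scatter within a list carries no value. TOC33, TIC100, CPHSC70-2 and TOM20-4 are the genes past the fold limit.

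Precursors known to be carried by each receptor class were set beside the receptors as 1 example each. RBCS1A (AT1G67090), the small subunit of Rubisco and a classical photosynthetic precursor, had 318, 369 and 307 CPM in GmWRI1 libraries and 37.4, 44.0 and 48.7 CPM in mCHERRY libraries. PDH-E1A (AT1G01090), a subunit of plastid pyruvate dehydrogenase used as a housekeeping precursor, had 299.7, 340 and 278 CPM in GmWRI1 libraries and 38.5, 37.8 and 41.3 CPM in mCHERRY libraries. Both rose by nearly the same amount, with log2 fold changes of 2.95 for RBCS1A (SE 0.11, adjusted p = 5.96e-15) and 2.97 for PDH-E1A (SE 0.10, adjusted p = 1.75e-15) by edgeR. The other tested mesophyll markers were at 1.23 for RCA, 0.61 for LHCB1.2 and -0.15 for CA1. A single example thus does not describe the precursors of its class. RBCS1A belongs to a family of near-identical genes, and reads that matched more than 1 of them equally well were discarded, so its level is uncertain.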

How the data were processed

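RNA-seq data came from 6 libraries, 3 per group, grouped by the treatment label. Per the study's methods, the authors used Bowtie 0.12.7 with 1 primary transcript per TAIR10 gene as the target, after filtering against rRNA, and discarded reads that matched more than 1 location equally well. The deposited files hold raw counts per primary transcript. A line naming no gene held 39.4% to 63.3% of each file and was left out. The authors' table of normalized signal (edgeR 3.10.5 per the labels, TMM) was used only to look up which members it lists, which were all 9. All columns were matched to a sample, and 0 were set aside.

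Counts were fitted in R 4.3.3 with edgeR 4.0.16 (filterByExpr, minimum count 10; TMM; glmQLFit and glmQLFTest; group only), with Benjamini-Hochberg adjustment over 14762 genes. Up or down calls required a log2 fold change beyond 1 in size and an adjusted p under 0.05, and "rose" or "fell" the adjusted p alone. P-values measure the spread between these biological replicates. Standard errors derive from the quasi-likelihood F statistic. Within-library ratios used a two-sided exact permutation test over 20 arrangements. Lengths, positions and AW Boxes came from RefSeq TAIR10.1.

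All 10 members were named. Of the other import list, genes past both limits and otherwise the 4 with the smallest adjusted p in each direction were named, and of the mitochondrial list the 2 smallest in each direction. RBCS1A and PDH-E1A were fixed as precursors. The member rule uses no measured value, but members and lists were chosen with earlier results of these data known. Alternatives were DESeq2 1.42.0 (its size factors and its Wald test), library size alone, the edgeR exact test, other filters, a replicate block and leaving out each library. The ratios and the share were also taken on other scales, and the share also without TOC33 and TOC34.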

Additional observations from a re-analysis of the deposited data

How the results depend on the processing

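Over 13 alternatives, the count of members past the adjusted p stayed at 4 higher and 0 lower. The members called up-regulated numbered 1, and 2 without mCHERRY replicate 3 (range 1 to 2 with a library left out). The log2 fold change of TOC33 ranged from 1.09 to 1.33, of TOC159 from 0.71 to 0.84, of TOC75 from 0.90 to 1.03 and of TIC110 from 0.61 to 0.79. Of 117 recomputed member changes, 112 kept their direction and side of the limit, and 5, none past the test, turned sign. These were TOC132 at -0.0329 without GmWRI1 replicate 2, -0.0586 without mCHERRY replicate 1 and -0.0469 without mCHERRY replicate 2, TIC40 at -0.0196 without GmWRI1 replicate 2, and TOC34 at -0.0119 without mCHERRY replicate 3. With 1 library left out, TOC34 ranged from -0.01 to 0.12, TOC132 from -0.06 to 0.19, TIC40 from -0.02 to 0.28, TOC120 from -0.48 to -0.02 and TIC56 from -0.57 to -0.01, none past the test. All 25 alternatives of the ratios and the share kept their direction. The TOC33 to TOC34 difference ranged from 1.05 to 1.32, that of the large receptors from 0.72 to 0.89 and the share from 9.68 to 14.4 points. Leaving out a library could not have turned a direction, because the groups did not overlap, and a replicate block leaves each difference as it was. Only the other scales and, for the share, the omission of TOC33 and TOC34 could have turned it. The 9.68 points came from that omission, and the share of raw counts gave 9.76 points. The lower counts were less stable. The other import genes that fell, 2 in all, numbered 0 under library size alone, 0 with no filter on low counts, 1 under the DESeq2 Wald test and 0 to 2 with a library left out, and the mitochondrial genes that fell, 2 in all, numbered 1, 1, 1 and 0 to 1 under the same settings; the cause was not tested.

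Deviations from the group means correlated at 0.103, -0.00752 and 0.043 between same-numbered libraries of the groups, and at -0.0739 to 0.0274 between differently numbered ones. The labels give only the number, and these values cannot settle whether same-numbered libraries were prepared together. With a replicate block the members past the adjusted p numbered 4. The other import genes numbered 8 higher and 2 lower, and the mitochondrial genes 1 higher and 2 lower. The block cannot change the TOC33 to TOC34 difference (1.22), that of the large receptors (0.80) or that of the share (13.4 points). Their unchanged size is therefore no check. The exact permutation p of each was 0.25 with the block and 0.1 without it. Libraries 1 and 3 of each group correlated best with their own number, and library 2 did not.

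The scalings moved the median of all genes to between -0.0217 and 0.0243, and no member turned sign under a scaling. Depth limits TOC120 and TIC56, whose intervals admit falls as large as the rise of TOC159, and TIC20-I was not analysed here. The exact permutation test of 3 libraries against 3 cannot go below p = 0.1. Messenger RNA levels do not give import activity.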

Other observations

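Genes of mitochondrial protein import were listed beside those of the chloroplast, 20 in all, of which 19 had reads and 17 were tested. By edgeR, 1 of 17 was higher and 2 were lower at an adjusted p under 0.05 (all tested genes: 20.4% higher, 14.6% lower), and their median log2 fold change was 0.07. TOM20-4 (AT5G40930), an outer membrane receptor for presequences, had 54.3, 61.8 and 52.4 CPM in GmWRI1 libraries and 23.6, 24.2 and 27.7 CPM in mCHERRY libraries. The groups did not overlap and TOM20-4 rose by a log2 of 1.17 (SE 0.12, adjusted p = 9.6e-08). Its paralog TOM20-2 (AT1G27390) was at 0.24 (adjusted p = 0.15 by edgeR). Another paralog, TOM20-3 (AT3G27080), named after its values were seen, was at -0.23 (adjusted p = 0.25 by edgeR). OM64 (AT5G09420), a mitochondrial relative of the chloroplast protein TOC64, fell by 0.47 (adjusted p = 0.0204), and TIM17-2 (AT2G37410), an inner membrane translocase subunit, fell by 0.27 (adjusted p = 0.0391). Both falls were lost under some alternatives, as given above: without mCHERRY replicate 1 or mCHERRY replicate 2 the count of mitochondrial genes that fell was 0, and without any 1 of the other libraries it was 1.

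SP1 (AT1G63900), the ubiquitin ligase known to remove TOC receptors from the outer envelope, was at 11.99 ± 0.593 CPM in GmWRI1 cells and 13.8 ± 2.16 CPM in mCHERRY cells (SD, n = 3 each), a log2 fold change of -0.19 (95% interval -0.56 to 0.17, adjusted p = 0.428 by edgeR). SPP (AT5G42390), the stromal peptidase that cleaves transit peptides, was at -0.10 (adjusted p = 0.415 by edgeR). Both genes were chosen for display after their values were seen.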
